A study of Mus musculus with 15 samples.

Results

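The genes described here are 9 genes of the myelin sheath, Mbp, Mag, Mog, Cnp, Mobp, Cldn11, Ugt8a, Bcas1 and Enpp6, of the 27803 genes listed over the count tables of the series. They were chosen by name, and all 9 were measured. The tables came from Drop-seq, in which single cells are captured in droplets with barcoded beads and each captured mRNA molecule is counted by its unique molecular identifier (UMI). There were 3 groups of 5 C57BL/6 mice. The WT group was untreated cerebellum at postnatal day 7. The Vehicle and Vismodegib groups were medulloblastomas, cerebellar tumors, of Math1-Cre:SmoM2/EYFPloxP/loxP (M-Smo) mice at day 15, after 3 daily doses of solvent or of 75 mg/kg vismodegib, an inhibitor of the Hedgehog signal transducer SMO. Both tumor groups carried the same transgenes and the WT mice carried none, and part of each cerebellum or tumor was used. In M-Smo mice, Cre under the Math1 promoter switches on SmoM2, a constantly active SMO, in the lineage of cerebellar granule neuron progenitors. The oligodendrocyte lineage is thus not the population that the promoter is meant to target. The paper nevertheless found the Yfp tag of the transgene in some oligodendrocytic cells of these tumors. It takes such cells as descendants of cells that expressed Math1-Cre. Droplets were made on a PDMS chip for WT and on a glass chip for both tumor groups. Human cells were mixed into the tumor samples only. Age, genotype, solvent doses, chip and the mixed-in human cells therefore differ together between Vehicle and WT and cannot be told apart.

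Myelin is the membrane that oligodendrocytes wrap around axons. Its formation is staged: oligodendrocyte progenitors, which carry Pdgfra and the proteoglycan Cspg4, leave the cell cycle, pass through a short premyelinating stage in which Bcas1 and Enpp6 are high, and then switch on the genes of the compact sheath under transcription factors that include Sox10, Olig1, Olig2 and Myrf. In the cerebellum, the white matter myelinates in the first weeks after birth.

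By role, Mbp encodes the cytoplasmic protein that holds the membrane layers of compact myelin together, and Mobp a second protein of the same compartment. Mag and Mog are surface proteins of the immunoglobulin family, Mag facing the axon and Mog on the outer face, where it appears late. Cldn11 forms the tight junctions of the sheath. Cnp is an enzyme of the channels of cytoplasm within it, Ugt8a makes the galactolipids of its membrane and Enpp6 is a choline phosphodiesterase. Bcas1 marks oligodendrocytes that are beginning to myelinate.

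The windows around the transcription start of Mag and Cnp, which held both sequences marked below, are shown for what they share. Both genes passed the test in the 2 comparisons of lineage cells between groups. So did Cldn11, Ugt8a and Enpp6, whose windows held neither sequence. The windows run from 250 bases before the start to 50 after it, on GRCm38.p6 as RefSeq gives them, and are written 5′ to 3′ on the strand of the gene. Capitals mark ACAAAG, a core that SOX proteins bind and that the Mag window holds as its reverse complement, and CTGGCAC, a form of the sequence bound by MYRF, on either strand. The marked matches do not overlap.
Mag, chr7:30914814-30915113, minus strand: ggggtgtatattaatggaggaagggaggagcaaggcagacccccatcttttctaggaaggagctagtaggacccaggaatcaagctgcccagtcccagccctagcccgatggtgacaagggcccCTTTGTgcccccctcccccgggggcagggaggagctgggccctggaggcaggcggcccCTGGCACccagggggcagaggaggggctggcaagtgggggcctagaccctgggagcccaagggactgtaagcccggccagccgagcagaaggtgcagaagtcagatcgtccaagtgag
Cnp, chr11:100574689-100574988, plus strand: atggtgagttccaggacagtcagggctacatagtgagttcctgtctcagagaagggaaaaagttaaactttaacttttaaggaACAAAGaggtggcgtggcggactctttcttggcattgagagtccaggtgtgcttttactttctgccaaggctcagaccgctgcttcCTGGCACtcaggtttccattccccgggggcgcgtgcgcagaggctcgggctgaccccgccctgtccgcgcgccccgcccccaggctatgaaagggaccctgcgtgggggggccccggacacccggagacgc
Each of these windows held 1 match of ACAAAG and 1 of CTGGCAC. Of the 7 members with a window in the RefSeq table, which has 9 windows for them since Mag has several starts, 3 held ACAAAG in at least 1 window (Mag, Cnp and Mobp, the last with 6 matches) and 2 held CTGGCAC. Over all 32851 windows of the table, 18.7% held ACAAAG and 5.01% held CTGGCAC. The E box CANNTG, which OLIG proteins bind, was in windows of 3 of the 7 members (Mag, Cnp and Ugt8a) and in 72.3% of all windows. A match of letters is not evidence of binding.

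The members lie on 8 chromosomes in GENCODE M21 on GRCm38, the build of the files, and none shares a locus with another. Mag is at chr7:30899176-30914873 on the minus strand, Cnp at chr11:100574904-100591729 on the plus strand, Mog at chr17:37010743-37023398 on the minus strand and Mobp at chr9:120149707-120181484 on the plus strand. Cldn11 and Ugt8a are both on chromosome 3, at chr3:31149920-31164324 on the plus strand and at chr3:125865271-125938619 on the minus strand. Bcas1 is at chr2:170346991-170427845 on the minus strand, Enpp6 at chr8:46986887-47096762 on the plus strand and Mbp at chr18:82475146-82585637 on the plus strand. The end of Mobp overlaps Gm38642 on the same strand, so its counts could include reads of that gene. Bcas1 has 2 genes on the opposite strand within it, Bcas1os1 and Bcas1os2, and Cnp overlaps Dnajc7, Mbp overlaps Rpl21-ps8, Mog overlaps Gm22388 and Enpp6 overlaps Gm45600 and 4930579M01Rik, all on the opposite strand. No source used here says whether strand entered the counting, so these counts could hold reads of the partner.

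After quality filters, 805 to 2086 cells per WT cerebellum, 1648 to 8103 per Vehicle tumor and 834 to 4162 per Vismodegib tumor were kept, with medians of 1082.5 to 1625 UMIs per cell in WT, 1141 to 2597 in Vehicle and 1183.5 to 2368 in Vismodegib. A cell was placed in the oligodendrocyte lineage if it had at least 1 UMI of Olig1 or Sox10, and these 2 genes are not members. Lineage cells numbered 108, 44, 53, 56 and 27 in the WT cerebella, 204, 255, 87, 123 and 844 in the Vehicle tumors and 51, 56, 23, 113 and 101 in the Vismodegib tumors. All levels are CPM: counts were summed over the cells of a set in each animal and divided by the total of that set, on a common scale, so n = 5 animals in each group. Counts of this depth miss many mRNAs of a cell, so a cell left out of the lineage set may belong to it. Tables of different animals shared at most 13 barcodes. Doublets were not removed, and free RNA in the droplets gives UMIs in cells that do not express a gene.

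The set carried other genes of the lineage. Olig2 was at 278 ± 106 CPM in WT, 349.6 ± 72.8 in Vehicle and 323 ± 40.4 in Vismodegib lineage cells (SD, n = 5), against 4.72 ± 2.03, 27.6 ± 16.5 and 2.01 ± 1.41 CPM in all other cells. It was not pure. The 7 listed astrocyte markers summed to 698 to 881 CPM in lineage cells of WT, 989 to 2035 of Vehicle and 1888 to 7139 of Vismodegib, against 757 to 1151, 535 to 797 and 596 to 1364 CPM in the other cells. The 8 granule neuron lineage markers summed to 622 to 2651, 2046 to 2496 and 1271 to 2856 CPM in the lineage sets. The part of these cells in the differences between groups was not tested. The SmoM2-EYFP transgene was at 32.1 ± 9.61 CPM in lineage cells of Vehicle and 33.2 ± 16.4 of Vismodegib, against 29.4 ± 4.74 and 23.3 ± 5.89 CPM in the other cells, and had 0 UMIs in the WT lineage cells.

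The first question was where the members were expressed. Within animals, all 9 were called higher in lineage cells than in other cells of the WT cerebella, where 827 of 11681 genes (7.08%) were called higher. The log2 fold changes ran from 4.55 for Cldn11 to 6.51 for Mag, and the largest adjusted p was 0.0149, for Mobp. In Vismodegib tumors all 9 were again called, from 3.49 for Bcas1 to 7.32 for Enpp6, beside 1229 of 12480 genes (9.85%). In Vehicle tumors 7 of 9 were called, beside 1452 of 13652 genes (10.6%). The 2 that were not were Mbp, with a log2 difference of 2.14 ± 0.53 (SE) and an adjusted p of 0.0636, and Mobp, with 2.92 ± 0.77 and 0.0733. Bcas1 had the lowest difference of the called members there, 1.87 ± 0.26, and Enpp6 the highest, 5.75 ± 0.30. These calls depended on the choice of cells: with Sox10 cells in place of all lineage cells 9 of 9 were called in Vehicle, beside 1606 of 12820 genes (12.5%), with Mbp at 3.56 ± 0.20, Mobp at 3.48 ± 0.29 and Bcas1 at 3.43 ± 0.14. With cells of Olig1 and no Sox10 5 of 9 were called, beside 1064 of 13535 genes (7.86%), and Bcas1, at 0.79 ± 0.20, was not (adjusted p 0.0701). DESeq2 called Mbp in all Vehicle lineage cells (adjusted p 0.00151) but not Mobp (0.0804). In WT, edgeR did not call Mobp with Sox10 cells (adjusted p 0.211). With cells of Olig1 and no Sox10 it called neither Mobp (0.201) nor Mag (0.0540) in WT, and not Mobp in Vismodegib (0.390).

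The members also differed in how much of their mRNA lay in lineage cells. These cells held 77.9 ± 8.19% of the Enpp6 UMIs in WT, 89.3 ± 6.07% in Vehicle and 90.4 ± 6.18% in Vismodegib (SD, n = 5). For Mag the shares were 78.4 ± 14.1%, 71.0 ± 16.2% and 76.0 ± 9.73%. For Bcas1 they were 61.7 ± 10.7%, 29.3 ± 9.52% and 35.9 ± 14.9%, and for Mbp 66.4 ± 11.6%, 32.7 ± 18.1% and 44.6 ± 17.6%. Enpp6 had the highest mean share of the 9 members in both tumor groups, while most Bcas1 UMIs of the tumors lay in cells without Olig1 or Sox10. Sequencing depth and the number of lineage cells both enter these shares.

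The second question was whether the members differed in lineage cells between Vismodegib and Vehicle tumors. Their levels were higher with vismodegib for all 9 genes by the sign of the fold change, and 5 of 9 passed the test: Mag, Cldn11, Cnp, Ugt8a and Enpp6. Beside them, 501 of 7142 genes (7.01%) were called higher. The median log2 fold change was 2.93 over the members and -0.00433 over all genes tested. In bulk sums of this kind, fewer cells that express a gene and less mRNA per cell cannot be told apart.

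Mag was at 322, 19.7, 6.93, 65.1 and 74.8 CPM in Vehicle tumors 1 to 5 and at 1217, 650.3, 1005, 456 and 1206 CPM in Vismodegib tumors 1 to 5, so the groups did not overlap. The log2 fold change was 3.37 ± 0.81 (SE) with an adjusted p of 0.0312. Cldn11 was at 509, 53.4, 55.4, 146 and 149 CPM in Vehicle tumors 1 to 5 and at 2334, 1044, 1556, 547 and 2048 CPM in Vismodegib tumors 1 to 5, again without overlap. Its log2 fold change was 3.16 ± 0.70, adjusted p 0.0213. For both genes Vehicle tumor 1 was the highest of its group. Mbp was at 1406, 195, 132, 606 and 506 CPM in Vehicle tumors 1 to 5 and at 7047, 1059, 3577, 1662 and 6882 CPM in Vismodegib tumors 1 to 5, so that Vehicle tumor 1 lay above Vismodegib tumor 2 and the groups overlapped. Its log2 fold change of 2.93 ± 0.81 had an adjusted p of 0.0514, above the threshold.

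The 2 late sheath genes had large differences and large errors. Mog was at 169.8, 4.21, 0, 19.9 and 47.0 CPM in Vehicle tumors 1 to 5 and at 81.7, 249.5, 870.0, 209 and 737 CPM in Vismodegib tumors 1 to 5, with Vismodegib tumor 1 below Vehicle tumor 1. A count of 0 in Vehicle tumor 3 allows up to 10.4 CPM there (3 UMIs, counting error only). The log2 fold change was 3.36 ± 1.02, adjusted p 0.0721. Mobp was at 298, 29.5, 0, 16.3 and 88.7 CPM in Vehicle tumors 1 to 5 and at 581, 340.3, 1489, 304 and 1098 CPM in Vismodegib tumors 1 to 5, with Vehicle tumor 3 at 0 and no overlap. For Mobp the log2 fold change was 3.28 ± 0.98, adjusted p 0.0697. Neither gene passed the test, although the estimates were close to that of Mag.

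Of the enzymes, Cnp had the smallest error. It was at 578, 115, 173, 439.5 and 331 CPM in Vehicle tumors 1 to 5 and at 1453, 741, 1953, 905 and 2844 CPM in Vismodegib tumors 1 to 5, without overlap. The log2 fold change was 2.37 ± 0.51, adjusted p 0.0143. Ugt8a was at 301, 43.5, 76.2, 97.7 and 91.4 CPM in Vehicle tumors 1 to 5 and at 654, 363, 570.3, 158 and 717 CPM in Vismodegib tumors 1 to 5, with Vismodegib tumor 4 below Vehicle tumor 1. Its log2 fold change was 2.15 ± 0.56, adjusted p 0.0362. Enpp6 was at 101, 19.7, 45.0, 123 and 43.5 CPM in Vehicle tumors 1 to 5 and at 926, 98.3, 319, 158 and 503 CPM in Vismodegib tumors 1 to 5, with Vismodegib tumor 2 below Vehicle tumors 1 and 4. Enpp6 thus gave a log2 fold change of 2.69 ± 0.70, adjusted p 0.0399.

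Bcas1 stood apart from the other members. It was at 920.2, 400.4, 665, 998 and 564 CPM in Vehicle tumors 1 to 5 and at 1779.8, 302, 918, 885 and 1569 CPM in Vismodegib tumors 1 to 5, with 3 Vismodegib tumors below the highest Vehicle tumor and 2 above all of them. Its log2 fold change of 0.71 ± 0.40 had an adjusted p of 0.304. The 2 genes that chose the cells were at 844 ± 95.5 CPM in Vehicle and 929 ± 125 in Vismodegib for Olig1 and at 132 ± 74.9 and 223 ± 112 for Sox10 (SD, n = 5), given with no test because the choice of cells sets these levels.

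The number of members called depended on single tumors. Over all alternatives, the genes called in either direction also moved, from 27 to 1372. A change in the count of members can therefore go with a change in all calls, though the 2 did not always move together, as the DESeq2 counts below show. Without 1 tumor the count of members was 1 when Vehicle tumor 5 or Vismodegib tumor 5 was left out, 2 without Vehicle tumor 2, Vehicle tumor 4, Vismodegib tumor 1 or Vismodegib tumor 3, 3 without Vehicle tumor 3, 6 without Vismodegib tumor 2 or Vismodegib tumor 4, and 7 without Vehicle tumor 1. The titles of the samples number the tumors, with no meaning of the number given: among the 3 Vehicle and 3 Vismodegib tumors numbered up to 10 no member was called (0 of 9) and among the 2 and 2 numbered from 12 only Mag was, while the log2 fold changes were 3.17 and 3.60 for Mag, 2.36 and 2.34 for Cnp and 3.16 and 2.16 for Enpp6. With DESeq2 in place of edgeR 8 of 9 members were called higher, beside 552 of 7142 genes (7.73%). When the difference in lineage cells was set against the difference in the other cells of the same tumors, by an interaction term in edgeR, 0 of 9 members were called and 5 had an unadjusted p under 0.05, beside 211 of 14010 genes (1.51%) called in either direction and 2039 of 14010 genes (14.6%) at the unadjusted cut.

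**Figure D1:**
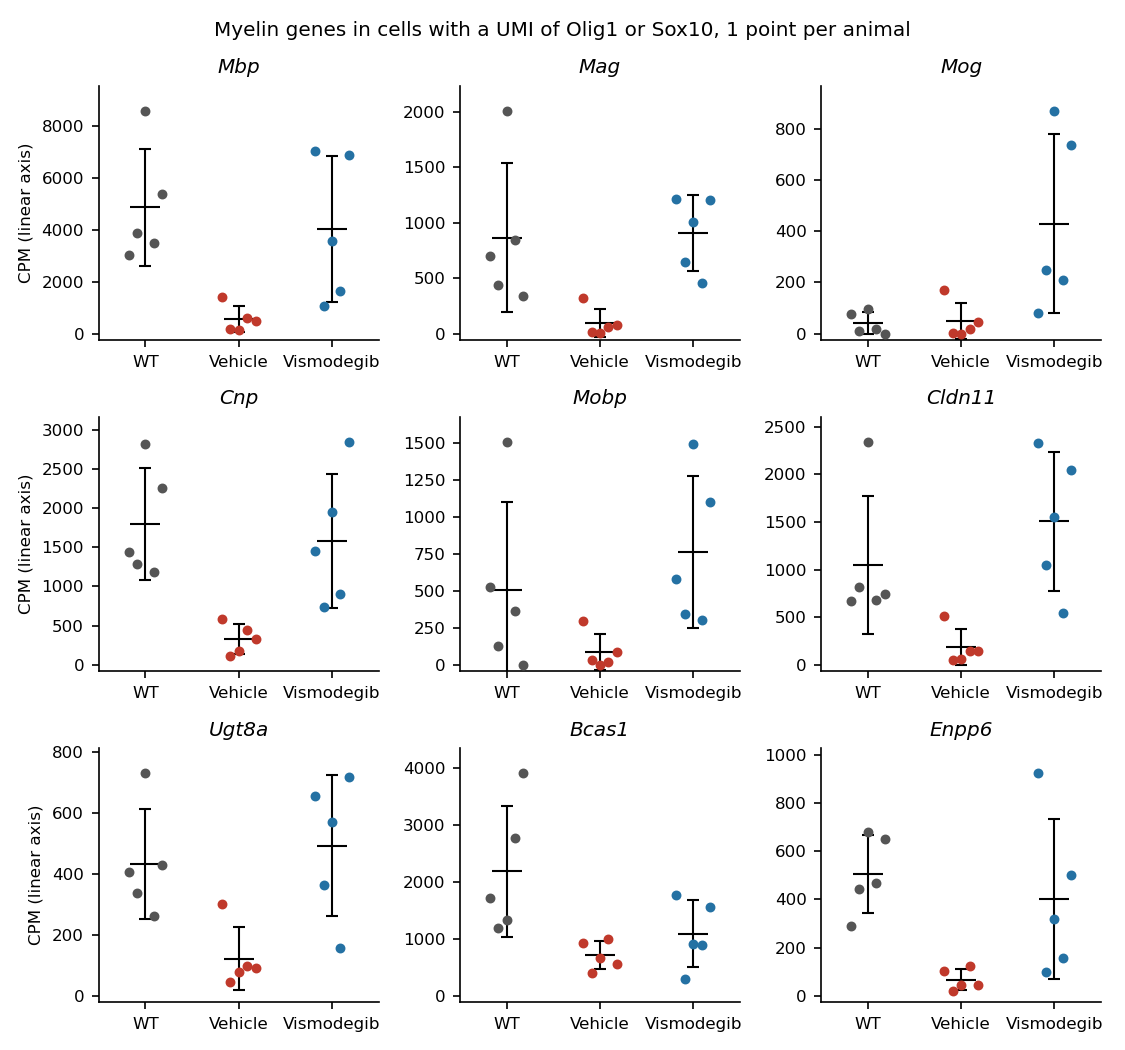
CPM of each member (linear axis from 0, a panel per gene) in lineage cells, with 1 point per animal and the mean ± SD of the 5 animals of each group in black. The mean of Vehicle lies below that of WT except for Mog. The Vismodegib tumors all lie above the Vehicle tumors for Mag, Cldn11, Cnp and Mobp and overlap with them for Mbp, Mog, Ugt8a, Enpp6 and Bcas1, with Bcas1 as the panel of least difference between the tumor groups and Mog as the panel where WT is as low as Vehicle.

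The third question was how lineage cells of the Vehicle tumors compared with those of the WT cerebella. Of the 8 members that passed the filter on low counts, 7 were called lower in Vehicle, beside 806 of 6124 genes (13.2%) called lower. The 7 were Mbp, Mag, Cldn11, Cnp, Ugt8a, Enpp6 and Bcas1. Mbp was at 3018, 3872, 8598, 3515 and 5401 CPM in WT cerebella 1 to 5, all above the 132 to 1406 CPM of the Vehicle tumors, and its log2 fold change was -3.25 ± 0.69 (SE, adjusted p 0.00946). Enpp6, high in cells about to myelinate, was at 289.6, 442, 678, 469 and 651 CPM in WT, also above every Vehicle tumor, and gave -3.07 ± 0.46 (adjusted p 4.26e-04). Cnp was at 1433, 1291, 2819, 1180.5 and 2249 CPM in WT and gave -2.59 ± 0.47 (adjusted p 0.00299).

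Mag was at 700.5, 442, 2009, 842 and 340.4 CPM in WT, with cerebellum 3 the highest and cerebellum 5 just above Vehicle tumor 1, and its log2 fold change was -3.41 ± 0.92 (adjusted p 0.0274). Cldn11 was at 674, 814, 2343, 677 and 739.9 CPM, where cerebellum 3 again stood above the rest, and gave -2.72 ± 0.74 (adjusted p 0.0285). Ugt8a was at 405, 337, 731, 260.4 and 429 CPM and gave -2.02 ± 0.52 (adjusted p 0.0183), with WT cerebellum 4 below Vehicle tumor 1. Bcas1 was at 1720.1, 1186, 1330.3, 2778 and 3922 CPM, above all Vehicle tumors, and gave -1.73 ± 0.34 (adjusted p 0.00207). Its highest WT values were in cerebella 4 and 5, not in cerebellum 3, which was the highest for the sheath genes.

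Neither late gene was called. Mobp ranged from 0 to 1506 CPM in WT, with cerebellum 5 at 0 and the highest cerebellum above all tumors, and its log2 fold change of -2.84 ± 1.17 had an adjusted p of 0.120. Mog was at 76.8, 11.6, 96.9, 17.4 and 0 CPM in WT, from 40 UMIs in all 5 animals, and did not pass the filter. The means of Mog were 40.5 ± 43.3 CPM in WT, 48.2 ± 70.4 in Vehicle and 429 ± 350.2 in Vismodegib (SD, n = 5). Mbp, by contrast, was at 4881 ± 2261 in WT and 4045 ± 2823 in Vismodegib. Vismodegib tumors and WT cerebella were not tested against each other. Of the genes that chose the cells, Sox10 was at 268 ± 43.2 CPM and Olig1 at 709.9 ± 125 in the lineage cells of WT.

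With an interaction term for the other cells of the same animals, 3 members kept a call, beside 893 of 14054 genes (6.35%) called in either direction. They were Mbp at -2.97, Bcas1 at -2.98 and Mag at -1.56 on the log2 scale.

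The lineage sets differed in makeup. They were 3.97 ± 1.06% of cells in WT, 7.25 ± 1.93% in Vehicle and 2.77 ± 0.373% in Vismodegib (SD, n = 5). The Vehicle tumors, at 5.28 to 10.4%, lay above every Vismodegib tumor (2.19 to 3.19%) and, by a narrow margin, above every WT cerebellum (2.68 to 5.26%). The 2-sided exact permutation test gave p = 0.00794 against each group, the smallest p that 5 against 5 allows. The difference was found in cells with Olig1 and no Sox10, which were 2.32 ± 0.760%, 5.80 ± 2.02% and 1.77 ± 0.0791% of cells (exact permutation p = 0.00794 for Vismodegib against Vehicle and 0.00794 for Vehicle against WT). Cells with a UMI of Sox10 were 1.65 ± 0.472%, 1.44 ± 0.576% and 0.997 ± 0.403%, with overlapping groups (exact permutation p = 0.206 for Vismodegib against Vehicle and 0.571 for Vehicle against WT). Of the 1513 lineage cells of the Vehicle tumors 255 had Sox10, of the 344 of the Vismodegib tumors 127, and of the 288 of the WT cerebella 119. With each cell thinned to 500 UMIs the lineage sets were 1.79 ± 0.636%, 3.04 ± 0.852% and 1.17 ± 0.288% of cells. The set with Olig1 and no Sox10 was defined after its values had been seen.

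**Figure D2:**
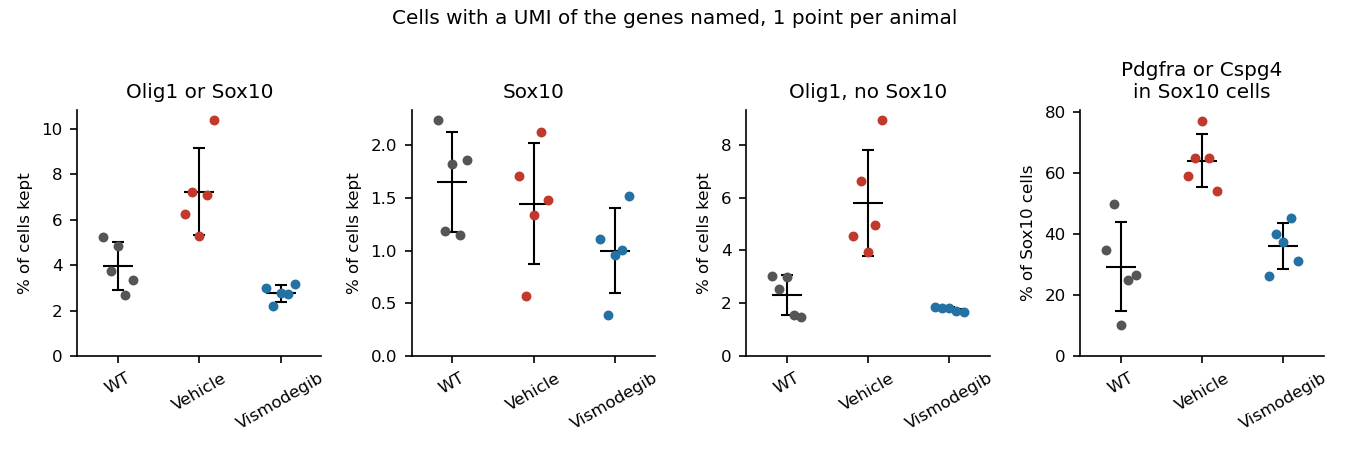
Percent of the kept cells with a UMI of Olig1 or Sox10, of Sox10, and of Olig1 without Sox10, and percent of Sox10 cells with a UMI of Pdgfra or Cspg4, with 1 point per animal and the mean ± SD of 5 animals. Vehicle tumors are the highest group except for the share of Sox10 cells, where the groups overlap.

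The members were lower in cells with Olig1 alone than in cells with Sox10 in every group. Mbp was at 1753 ± 1201 CPM in Sox10 cells and 264 ± 259 in Olig1 cells without Sox10 in Vehicle, at 7552 ± 5361 and 1017 ± 410.2 in Vismodegib, and at 8222 ± 4587 and 2197 ± 1015 in WT. Enpp6 was at 279 ± 86.8 and 11.6 ± 10.7 CPM in Vehicle and 832 ± 726 and 46.1 ± 25.4 in Vismodegib, and 746 ± 239.6 and 322 ± 172 in WT. In the Olig1 cells without Sox10, the proliferation gene Mki67 was at 1025 ± 275 CPM in Vehicle, 579 ± 251 in Vismodegib and 669.7 ± 137 in WT. The astrocyte markers summed to 1568 ± 661, 6271 ± 2286 and 1183 ± 499 CPM there, and to 403 ± 104, 495 ± 417 and 422 ± 380.2 in Sox10 cells. In Vehicle, every listed granule neuron lineage marker also had a higher mean there than in Sox10 cells. Zic1 was at 866 ± 105 against 240 ± 70.8 CPM, Barhl1 at 308 ± 59.5 against 74.9 ± 44.7 and Rbfox3 at 393 ± 134 against 113 ± 38.8. In WT all of these markers but Gli1 were higher, and in Vismodegib all but Atoh1. These markers were not tested.

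In Sox10 cells alone, 2 of 9 members were called higher in Vismodegib, Cldn11 and Cnp, beside 26 of 1735 genes (1.5%) called higher. Cldn11 was at 1036, 228, 131, 423 and 415 CPM in the Vehicle tumors and 4934, 2196, 3107, 1149.8 and 3441 in the Vismodegib tumors, without overlap, and its log2 fold change was 2.80 ± 0.50 (SE, adjusted p 0.0129). Cnp gave 1.36 ± 0.31 (adjusted p 0.0251), from 656 to 1536 CPM in Vehicle and 1373 to 4609 in Vismodegib. Mog at 3.05 ± 0.75 (adjusted p 0.0684), Mobp at 3.07 ± 0.97 (0.180), Mag at 2.73 ± 0.71 (0.0833) and Mbp at 2.21 ± 0.63 (0.107) had estimates of 2.21 or more that did not pass, and 8 of the 9 had an unadjusted p under 0.05, as did 234 of 1735 genes (13.5%) in either direction. Bcas1 gave -0.04 ± 0.29 (adjusted p 0.975), with 2413 ± 452 CPM in Vehicle and 2157 ± 1109.9 in Vismodegib. These sums rest on 56, 20, 22, 37 and 120 cells in the Vehicle tumors and on 19, 10, 8, 42 and 48 in the Vismodegib tumors.

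Between Vehicle and WT, 3 of the 8 members that passed the filter in Sox10 cells were called lower, beside 174 of 1257 genes (13.8%): Mbp at -2.22 ± 0.59 (adjusted p 0.0185), Cnp at -1.15 ± 0.27 (0.00371) and Enpp6 at -1.39 ± 0.27 (5.50e-04). Bcas1 gave -0.34 ± 0.25 (adjusted p 0.355), so its call in all lineage cells was lost. In cells with Olig1 and no Sox10, 0 of the 7 members that passed were called between Vismodegib and Vehicle, beside 305 of 5093 genes (5.99%) called higher, with 2 members at an unadjusted p under 0.05, as had 1093 of 5093 genes (21.5%) in either direction. Between Vehicle and WT, 6 of 7 were called lower in these cells, beside 553 of 4401 genes (12.6%), the largest being Enpp6 at -4.58 ± 0.52.

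**Figure D3:**
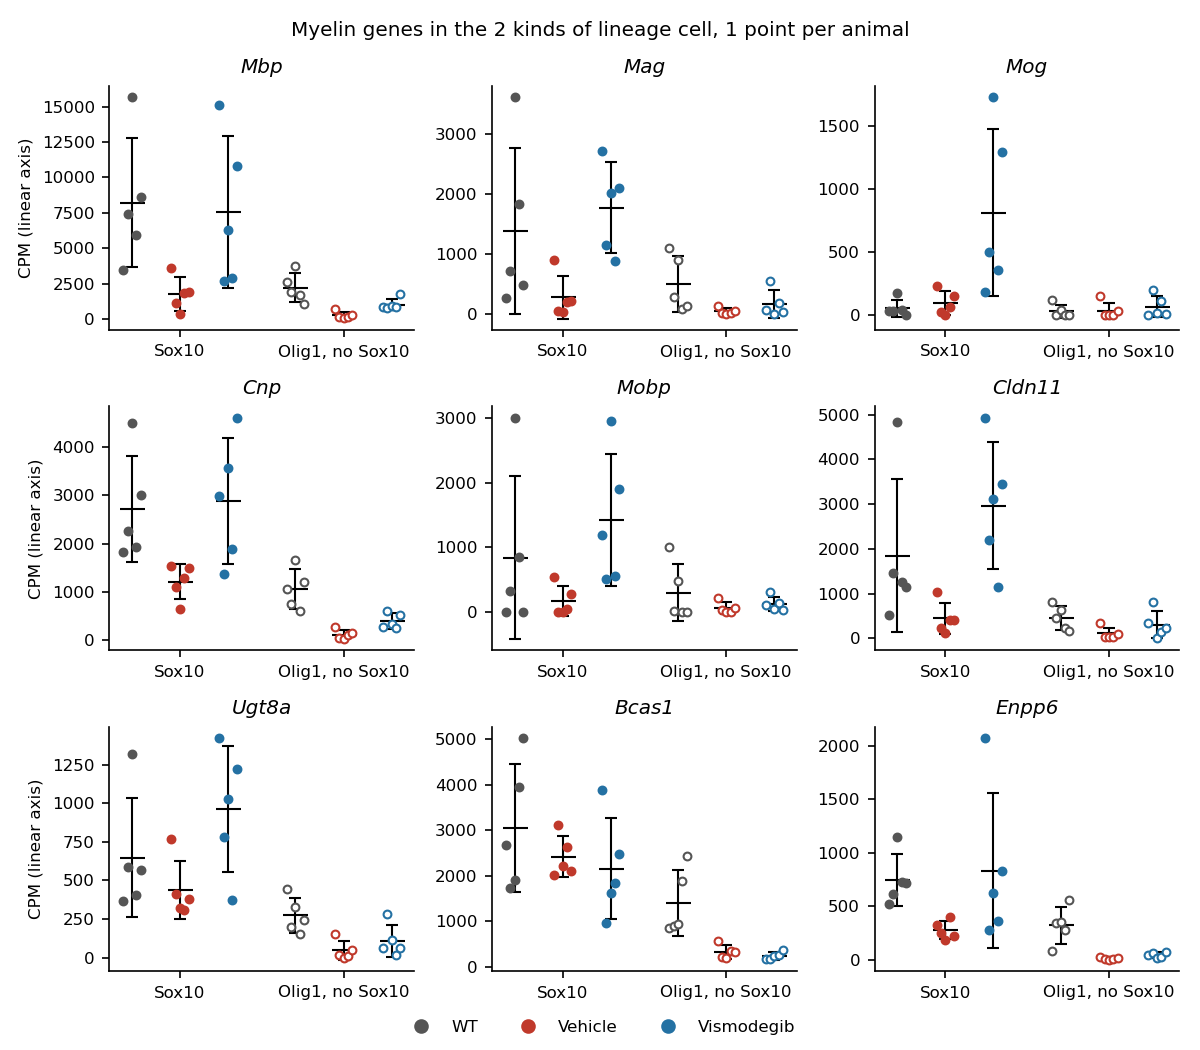
CPM of each member (linear axis) in cells with a UMI of Sox10 (filled points) and in cells with a UMI of Olig1 and none of Sox10 (open points), by group, with 1 point per animal and the mean ± SD of 5 animals. The Sox10 cells are higher in the mean for every member and group, and the group means of Bcas1 in Sox10 cells are 2157 to 3053 CPM.

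The Sox10 cells also differed between groups in their share with a progenitor gene. A UMI of Pdgfra or Cspg4 was found in 29.3 ± 14.6% of Sox10 cells in WT, 64.0 ± 8.66% in Vehicle and 36.1 ± 7.41% in Vismodegib (SD, n = 5; 2-sided exact permutation p = 0.00794 for Vismodegib against Vehicle and 0.00794 for Vehicle against WT). Over all lineage cells the shares lay closer together, at 30.04 ± 5.09%, 36.3 ± 5.18% and 29.3 ± 5.06%, and did not pass (p = 0.0714 and 0.103 by the same exact test). Pdgfra, the receptor that keeps progenitors dividing, was lower in Sox10 cells of Vismodegib at -2.11 ± 0.30 on the log2 scale (adjusted p 0.00106). Outside the lineage, Pdgfra was at 79.4 ± 12.3, 112 ± 33.2 and 60.1 ± 12.6 CPM in WT, Vehicle and Vismodegib, against 212 ± 165, 871 ± 316 and 187 ± 41.6 in Sox10 cells.

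In the fit of all animals together, members and progenitor genes divided the lineage. In all 15 animals, lineage cells with a UMI of Pdgfra or Cspg4 were set against lineage cells with neither, with the animal as a block. Of the members, 8 of 9 were called lower in the cells with a progenitor gene, beside 364 of 5793 genes (6.28%) called lower. Mag differed most, by -4.10 ± 0.55 (SE, adjusted p 1.52e-04), followed by Mbp at -3.30 ± 0.59 (0.00173), Enpp6 at -3.27 ± 0.38 (2.09e-05) and Cldn11 at -3.18 ± 0.54 (0.00106). The smallest called difference was that of Bcas1, -1.36 ± 0.31 (adjusted p 0.00865), and Ugt8a at -1.47 ± 0.47 was not called (0.0655). Of the 20 listed progenitor genes 18 passed the filter, and 12 were called higher in the same cells, beside 201 of 5793 genes (3.47%). Pdgfra and Cspg4 are 2 of the 12 and chose the cells. Olig2 was among the others, at 1.06 ± 0.14. With the WT cerebella left out, 4 of 9 members were called lower, beside 230 of 6791 genes (3.39%). In Sox10 cells of the 11 animals with enough of both kinds, all 9 members were called lower, beside 299 of 2348 genes (12.7%).

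Members were found together in single cells. Cells with UMIs of at least 4 of the 9 members were 24.8 ± 7.65% of lineage cells in WT, 7.18 ± 5.48% in Vehicle and 22.7 ± 10.3% in Vismodegib (SD, n = 5), and 0.365 ± 0.129%, 0.142 ± 0.136% and 0.651 ± 0.589% of the other cells. Among Sox10 cells they were 36.5 ± 11.9%, 24.0 ± 11.2% and 51.2 ± 16.7%. The gate did not catch all such cells: 71 of 95 in WT, 88 of 110 in Vehicle and 84 of 168 in Vismodegib had a UMI of Olig1 or Sox10. Pooled over the Vismodegib tumors, as many cells rich in members lay outside the gated set as in it, but the tumors differed. In tumors 1 to 5, 15, 6, 4, 22 and 37 such cells lay in the set and 2, 3, 7, 25 and 47 outside it. With cells thinned to equal depth, they fell from 0.617 to 0.0494% of the other cells in tumor 4 and from 1.53 to 0.294% in tumor 5. In the lineage cells of these tumors they fell from 19.5 to 6.19% and from 36.6 to 23.8%. Deeper cells reach 4 members more easily, and no test was made.

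Outside the lineage set the members were low, but not equal between groups. In cells with no UMI of Olig1 or Sox10, 5 of the 7 members that passed the filter were called higher in Vismodegib than in Vehicle, beside 1136 of 12912 genes (8.8%) called higher. Mbp rose by 0.95 ± 0.28 (SE, adjusted p 0.0404), with 65.5 to 135 CPM in Vehicle and 85.6 to 289 in Vismodegib, which overlapped. Mag rose by 2.39 ± 0.42 (0.00331), with 0.512 to 3.67 CPM in Vehicle and 6.39 to 21.1 in Vismodegib, without overlap. Mobp rose by 1.91 ± 0.45 (0.0131), Cnp by 1.34 ± 0.35 (0.0233) and Ugt8a by 1.09 ± 0.30 (0.0280). Without 1 tumor the count was 2 when Vismodegib tumor 5 was left out, 3 without Vismodegib tumor 4 or Vehicle tumor 2, and 4 to 6 otherwise, and in the granule neuron lineage set alone it was 3. Over all alternatives, 1134 to 2474 genes were called in either direction. The cells rich in members that the gate missed are part of these sums. Mbp had higher means in Vismodegib than in Vehicle in sets of other cell types too. They were 83.9 ± 81.7 against 24.5 ± 38.6 CPM with endothelial markers, 145 ± 70.7 against 74.6 ± 55.2 with microglial and 100 ± 48.0 against 58.8 ± 49.7 with fibroblast markers. Barcodes under 500 UMIs had 954 ± 1031 (n = 4) against 231 ± 421, with medians of 659 and 0. Other members did not all go this way. Among the means that were not higher in Vismodegib were Cnp with microglial markers (37.4 against 44.3) and in barcodes under 500 UMIs (85.7 against 227). Mag (11.8 against 14.4) and Cldn11 (0 against 6.84) with endothelial markers were others. The part of free RNA was not tested.

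Bcas1 moved the other way. It was at 43.5, 60.0, 70.1, 67.6 and 73.4 CPM in the other cells of WT cerebella 1 to 5, at 215, 171, 153, 142 and 198 in those of Vehicle tumors 1 to 5 and at 78.8, 76.2, 80.1, 73.2 and 107 in those of Vismodegib tumors 1 to 5. Every Vehicle tumor was above every other animal. The log2 fold change was -1.10 ± 0.14 (SE) for Vismodegib against Vehicle (adjusted p 6.69e-04), beside 569 of 12912 genes (4.41%) called lower. For Vehicle against WT it was 1.45 ± 0.17 (adjusted p 1.07e-05), beside 3104 of 13378 genes (23.2%) called higher. A UMI of Bcas1 was found in 26.1 ± 2.53% of the other cells of Vehicle, 13.8 ± 5.09% of Vismodegib and 7.20 ± 1.10% of WT. With each cell thinned to 500 UMIs these shares were 8.13 ± 1.17%, 3.86 ± 0.915% and 2.28 ± 0.357%. The median depth of the other cells was 1127 to 2520.5 UMIs in Vehicle, 1169 to 2338 in Vismodegib and 1070.0 to 1600.0 in WT.

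The other cells were divided by marker UMIs to see where Bcas1 lay. In cells with granule neuron lineage markers it was at 179 ± 30.6 CPM in Vehicle, 87.8 ± 13.5 in Vismodegib and 51.9 ± 5.69 in WT. In cells with endothelial markers, which should lack it, it was at 10.6 ± 23.7, 23.4 ± 24.9 and 3.94 ± 8.82 CPM, and in cells with microglial markers at 54.4 ± 29.3, 38.4 ± 19.2 and 3.93 ± 8.78. A UMI of Bcas1 was found in 1.82 ± 4.07%, 6.67 ± 6.56% and 0.909 ± 2.03% of the endothelial set, whose median depth was 1262 to 2455 UMIs in Vehicle, 1304 to 5856 in Vismodegib and 1056 to 3535 in WT. In Vehicle, Bcas1 was higher in the granule neuron lineage set than in either of these sets in the mean. Mbp was at 101 ± 25.2 CPM there, 24.5 ± 38.6 in the endothelial set and 74.6 ± 55.2 in the microglial set. The sets were not tested against each other, and the endothelial set held 59 cells over the 5 Vehicle tumors.

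Among the sets of other cells, the mean CPM of Cldn11 was highest in cells with fibroblast markers and that of Cnp in cells with astrocyte markers, and the sets were not tested against each other. Cldn11 was at 791 ± 148 CPM in WT, 205 ± 48.7 in Vehicle and 264 ± 127 in Vismodegib in cells with vascular and meningeal fibroblast markers, against 6.14 to 24.7 CPM over all 15 animals in the granule neuron lineage set. Arachnoid cells of the meninges are known to use Cldn11 in their tight junctions. Those marker cells were 2.32 ± 0.618% of cells in WT, 0.516 ± 0.210% in Vehicle and 1.31 ± 0.339% in Vismodegib. Cnp was at 159 ± 46.0, 53.7 ± 28.8 and 199 ± 72.0 CPM in cells with astrocyte markers, 34.8 ± 21.4, 44.3 ± 30.3 and 37.4 ± 20.3 in cells with microglial markers, 3.94 ± 8.82, 10.6 ± 23.7 and 11.3 ± 21.0 in cells with endothelial markers and 26.0 ± 17.3, 9.48 ± 2.93 and 16.1 ± 6.07 in the granule neuron lineage set. It was at 146 ± 69.9, 20.9 ± 14.7 and 146 ± 124 in the cells placed in no set, so the astrocyte set lay within 1 SD of these in WT and Vismodegib and within 1 SD of the microglial set in Vehicle. The part of free RNA and doublets in these levels was not tested. Of the 7 members that passed in the other cells between Vehicle and WT, 4 were called lower, Cnp at -1.87 ± 0.34 (adjusted p 4.40e-04), Mag at -1.97 ± 0.47 (0.00316), Ugt8a at -1.51 ± 0.31 (0.00111) and Cldn11 at -1.40 ± 0.27 (6.66e-04), beside 3336 of 13378 genes (24.9%). In the granule neuron lineage set alone, Cldn11 gave 0.23 with an adjusted p of 0.638. Mbp and Mobp were not called. The background of calls in these cells was high in both directions.

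**Figure D4:**
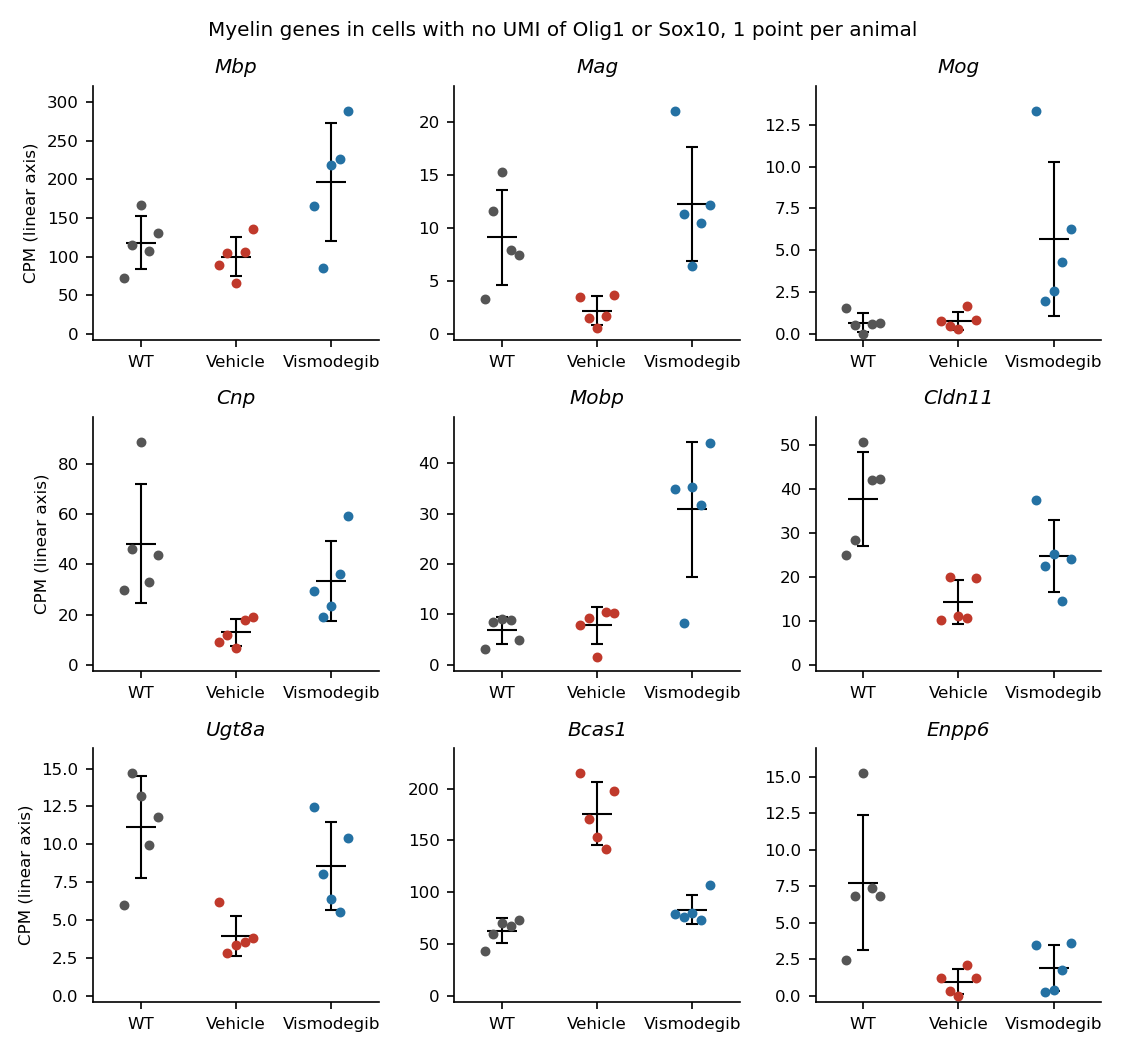
CPM of each member (linear axis from 0, a panel per gene, with scales far below those of the lineage cells) in cells with no UMI of Olig1 or Sox10, with 1 point per animal and the mean ± SD of 5 animals. Of the 9 members, 6 have their lowest mean in Vehicle, and Bcas1 has its highest mean there.

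The members were set beside 42 other genes of myelin and oligodendrocytes, listed by name. Between Vismodegib and Vehicle lineage cells 34 of the 42 passed the filter, 25 were called higher and 0 lower, with a median log2 fold change of 2.02 over those tested. Beside them, 501 of 7142 genes (7.01%) were called higher. Among the 8 called genes with the largest differences were Ermn at 3.96 ± 0.91, Nfasc, an adhesion protein of the node of Ranvier, at 3.10 ± 0.73, Gpr37 at 3.04 ± 0.45, the transcription factor Nkx6-2 at 3.00 ± 0.60, transferrin (Trf) at 2.93 ± 0.71 and Tspan2 at 2.80 ± 0.56 (SE). Of the 20 listed progenitor genes 18 passed, 3 were called higher (against 7.01% of all genes) and 0 lower, with a median of 0.66. In Sox10 cells alone 4 of 24 of the other myelin genes were called higher and 0 lower, with a median of 0.91, beside 26 of 1735 genes (1.5%) called higher. Of the progenitor genes 0 of 16 were called higher and 4 lower, beside 18 of 1735 genes (1.04%) called lower, with a median of -0.44.

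Between Vehicle and WT 27 of the 42 passed, 14 were called lower and 1 higher, with a median of -1.10, beside 806 of 6124 genes (13.2%) called lower. The 8 that fell most were Lpar1 at -3.01 ± 0.47, Tcf7l2 at -2.66 ± 0.29, Myrf, the transcription factor of myelin genes, at -2.43 ± 0.73, Sirt2 at -2.30 ± 0.31, Plxnb3 at -2.24 ± 0.45, Elovl7 at -2.21 ± 0.44, Nfasc at -2.10 ± 0.56 and Sema4d at -2.01 ± 0.48 (SE). Qdpr was the gene called higher, at 0.91 ± 0.25. Of the progenitor genes 10 of 18 were called lower (against 13.2% of all genes) and 1 higher. In Sox10 cells of the same groups 1 of 12 of the other myelin genes was called lower and 1 higher, with a median of 0.07. These counts were no more than the share of all genes, 174 of 1257 (13.8%) called lower and 147 of 1257 (11.7%) called higher. Of the progenitor genes 0 of 12 were called lower and 7 higher in these cells. The list was not tested between the sets of cells.

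Across the 15 animals, the members were compared with each other by their levels in lineage cells. Over the 36 pairs of members the Pearson correlation of log2 CPM had a median of 0.777 and ran from -0.137 to 0.974. The 15 points share the differences between groups and in the makeup of the lineage set. Of the 5 genes most like the mean of the members over the 15 animals by this correlation, of 6175 compared, 4 are named here: Tmeff2 (0.942), Adamts4 (0.926), Plekha1 (0.916) and Pcyt2 (0.914). None of these 4 was on the list of other myelin genes.

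**Figure D5:**
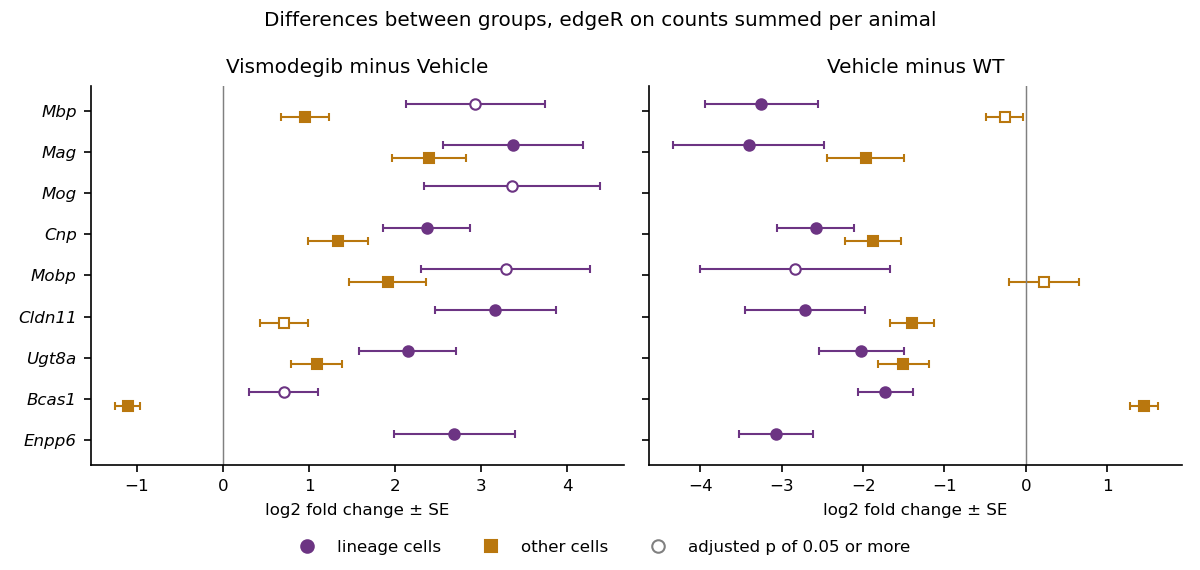
Log2 fold change ± SE of each member between Vismodegib and Vehicle (left) and between Vehicle and WT (right), in lineage cells (circles) and in other cells (squares), from edgeR on counts summed over cells of each animal, 5 animals per group. Filled symbols had an adjusted p under 0.05, and a member without a symbol did not pass the filter on low counts. Bcas1 is the member whose 2 symbols lie on opposite sides of 0 in both panels.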

How the data were processed

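The deposited files were tables of raw UMI counts per gene and cell barcode, 1 per mouse, made by the authors from Drop-seq reads. Human cells had been mixed into the tumor samples, and mostly mouse barcodes were kept by the authors. The submitters' processing notes name bcl2fastq 2.18, STAR 5.4b, Seurat 2.3.0 and the builds mm10 and hg19. Total counts per table were 2310474 to 17708677 UMIs, and intervals and limits cover counting error only.

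Cells with at least 500 UMIs and 500 genes were kept if they were no more than 5 SD above the median of their sample. This limit was set for UMIs, for genes and for the share of mitochondrial UMIs. No doublet caller was run. Counts were summed per mouse over each set of cells and tested with edgeR 4.0.16 (R 4.3.3) by its quasi-likelihood test, with TMM scaling, filterByExpr and Benjamini-Hochberg adjustment over all genes tested, and a gene was called at an adjusted p under 0.05. Standard errors were taken from the log2 fold change and its F statistic. Shares of cells were compared by exact permutation. The members and gene lists were chosen with earlier results of these data known. Beyond the members, Olig1 and Sox10, the text names up to 8 called genes per direction of the list of other myelin genes with the largest fold change, the 5 genes whose log2 CPM was most like the mean of the members (mean log2 CPM of at least 5), markers of cell types, and genes on which a result turned. Alternatives were DESeq2 1.42.0, no filter on low counts, each mouse left out, replicate numbers as a block, 1 fit of all 15 mice, the numbers in the titles, deeper cells and other definitions of the lineage cells. Cells with Olig1 and no Sox10, Sox10 cells without Pdgfra or Cspg4, the granule neuron lineage set and the title number in the other cells were added after seeing the data. Some genes that this rule names are not reported here. The edgeR step was tested on simulated data. Python 3.11, numpy 2.4.6, pandas 2.3.3, scipy 1.17.1 and matplotlib 3.10.9 were used.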

Additional observations from a re-analysis of the deposited data

Results flagged for a closer look

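In 81 groups of 5 animals (9 members, 3 sets of cells, 3 groups of mice), the highest or lowest animal stood apart from the rest by Dixon's test 14 times. Chance gives about 1 in 20 for normally distributed values. The values were CPM on a linear scale, and all flags but that of Mobp were for the highest animal, so this rate may not hold here. The sets share cells and the members share animals, so these are not 14 separate events. In lineage cells of Vehicle, tumor 1 stood above the other tumors for Mag (322 CPM, median 65.1), Mog (169.8 CPM, median 19.9), Cldn11 (509 CPM, median 146.5) and Ugt8a (300.8 CPM, median 91.4), and in Sox10 cells for Mag (902 CPM, median 202) and Ugt8a (768 CPM, median 380.0). In Sox10 cells of WT, 1 cerebellum stood above the others for Mog (173 CPM, median 32.5), Mobp (3006 CPM, median 325), Cldn11 (4843 CPM, median 1269.9) and Ugt8a (1319 CPM, median 567), and in all WT lineage cells for Cldn11 (2343 CPM, median 739.9). Outside the lineage set, 1 WT cerebellum was high for Cnp (88.8 CPM, median 43.5), 1 Vehicle tumor was low for Mobp (1.53 CPM, median 9.20) and 1 Vismodegib tumor was high for Bcas1 (107 CPM, median 78.8).

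The difference between Vehicle and WT was not the same in lineage cells and in the other cells for 3 members, by the interaction term in edgeR: Mbp at -2.97, Mag at -1.56 and Bcas1 at -2.98 on the log2 scale, each lower in the lineage cells.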

How the results depend on the processing

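Of 9 members, 5 were called higher in Vismodegib than in Vehicle lineage cells. With the number of all genes tested that were called higher in brackets, the count was 8 with DESeq2 (552 of 7142), 8 in lineage cells without Pdgfra or Cspg4 (635 of 5310), 3 with no filter on low counts (769 of 20186), 3 with the title number as a term (626 of 8156), 2 in Sox10 cells (26 of 1735), 1 in Sox10 cells without Pdgfra or Cspg4 (19 of 694), 0 in cells with Olig1 and no Sox10 (305 of 5093), 0 with the interaction term (88 of 14010), 0 among tumors numbered up to 10 (264 of 5125), 1 among those numbered from 12 (147 of 8161), and 1 to 7 with 1 tumor left out. In the other cells the count of 5 became 3 with no filter (1095 of 25935 genes higher), 3 in the granule neuron lineage set (991 of 12083) and 2 to 6 with 1 tumor left out. Between Vehicle and WT lineage cells the 7 called lower became 3 in Sox10 cells (174 of 1257 genes lower), 3 with the interaction term (207 of 14054), 1 in Sox10 cells without Pdgfra or Cspg4 (74 of 699) and 5 to 8 with 1 animal left out. The 8 members lower in cells with a progenitor gene became 4 without the WT cerebella (230 of 6791 genes lower), a fit on fewer animals. Within animals, leaving 1 out gave 8 to 9 members higher in lineage cells in WT, 6 to 7 in Vehicle and 8 to 9 in Vismodegib, and in the other cells 4 to 5 members lower in Vehicle than WT. The cause of these changes was not tested.

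Signs turned for Bcas1 between Vismodegib and Vehicle in Sox10 cells (-0.043), in cells with Olig1 and no Sox10 (-0.29) and in Sox10 cells without Pdgfra or Cspg4 (-0.69), and between Vehicle and WT in the last set (0.18). They turned for Olig1 with at least 2 UMIs of Olig1 and Sox10 together (-0.074), for Cldn11 between Vehicle and WT in the granule neuron lineage set (0.23), and for Mobp between Vehicle and WT in the other cells, which ran from -0.014 to 0.49 with 1 animal left out. None of these values was called.

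The share of lineage cells differed by -4.48 percentage points between Vismodegib and Vehicle (-4.97 to -3.69 with 1 tumor left out) and by 3.28 between Vehicle and WT (2.48 to 3.77). For Sox10 cells the differences were -0.448 (exact p = 0.206) and -0.207 (exact p = 0.571), the second with the opposite sign. The deviations of same-numbered animals correlated at -0.0551 to 0.273 between the tumor groups in lineage cells and at -0.138 to 0.465 in the other cells, and at -0.145 to 0.0391 and -0.232 to 0.0221 between Vehicle and WT. Since not every pair was over 0.1, the main tests treated the animals as unpaired. The title numbers of same-numbered Vehicle and Vismodegib tumors are adjacent, however: 5 and 4, 6 and 7, 10 and 9, 13 and 12, and 15 and 14. The paper states that littermates were injected. Whether same-numbered tumors share a litter or a run is not given and was not tested. With the replicate block 6 members were called higher between Vismodegib and Vehicle (642 of 8831 genes) and 4 lower between Vehicle and WT (889 of 7968) in lineage cells, and 6 higher (1270 of 14178) and 5 lower (3539 of 14964) in the other cells, where Bcas1 was called in the opposite direction in both comparisons, and the paired exact test of the shares gave -4.48 and 3.28 with p = 0.0625 each, the smallest that 5 pairs allow.

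Over all genes, calls in lineage cells ranged from 27 to 1372 between Vismodegib and Vehicle, 10 of 24 alternatives moving them by over 1.5 times, and from 137 to 2496 between Vehicle and WT, 5 of 21 moving them so. In the other cells calls ranged from 1134 to 2474 and from 5631 to 8485. For lineage against other cells within animals they ranged from 1017 to 1966 in WT, 1999 to 3942 in Vehicle and 1305 to 2884 in Vismodegib. The sums of Sox10 cells rest on few cells, and a member with 0 UMIs in an animal is not shown to be absent there.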
